A study of Rattus norvegicus with 9 samples.

Results

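The chemokine system of the rat lung was described gene by gene in rats with metabolic syndrome (MetS) and controls. Members were the genes whose single array symbol begins as a chemokine (Ccl, Cxcl, Cx3cl or Xcl), a chemokine receptor (Ccr, Cxcr, Cx3cr or Xcr) or an atypical receptor (Ackr or Ccrl2). This gave 53 of 14497 genes with 1 symbol on the array, 33 of them ligands, 17 signalling receptors and 3 atypical receptors. Each of the 53 was read by 1 probe, here a transcript cluster of the array. Ccr8, Ccl1, Ackr1 and Ackr4 were not analysed here.

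Chemokines are small secreted proteins that steer leukocytes along gradients, and their receptors are G protein coupled receptors on the surface of the cells that move. Inflammatory chemokines are made on demand by macrophages, epithelium and stroma, often under NF-kappaB or interferon, whereas homeostatic ones place lymphocytes, dendritic cells and other leukocytes in resting tissue. Atypical receptors bind chemokines without the usual G protein signal and remove or hold them. In the lung these molecules bring monocytes, neutrophils, eosinophils and lymphocytes to the airways and alveoli.

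Whole-lung RNA came from 3 Wistar rats with MetS and 4 Wistar controls. The MetS rats had, from weaning on, only a 30% sucrose solution to drink for 24 weeks, and the controls drank water for the same time. Both groups ate the same chow freely and were fasted for 7 hours before sampling. Male sex is stated for the MetS rats and none for the control rats, so that sex and diet cannot be told apart, and metabolic measures of the animals were not analysed here. MetS animal 1 and control animal 1 were each hybridised on 2 arrays, which were averaged, so that 9 arrays stood for 7 animals. Values are log2 expression as deposited, differences are MetS minus control on that scale, and the number of animals limits the precision of all of them. The markers of lung tissue were present, with a mean over 6 genes between 12.74 and 12.89 in MetS and between 12.77 and 12.88 in controls, among them the endothelial genes Pecam1 and Cdh5 and the club cell gene Scgb1a1. The spread of the values over all probes differed between animals, with an SD of 1.876 to 1.932 in MetS and 1.759 to 1.883 in controls, highest in MetS animal 1 and lowest in control animal 3, so that it ran partly along with the groups. The comparison was therefore also fitted with this SD as a covariate. In whole tissue, fewer cells of a type and less RNA per cell cannot be told apart.

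The promoters of the members are shown first, because many chemokine ligands are textbook targets of NF-kappaB and the differences below can be set beside their sequence. Promoters of 300 bases, 250 before and 50 after the RefSeq start of each gene in assembly GRCr8, were found for 42 of the 53 members. Ccl2, Ccl3, Ccl4 and Ccl5 were among the members without a promoter here, so that they were not searched. The kappaB decamer, the 10-letter consensus bound by NF-kappaB, was searched on both strands. It occurred in 8 of 42 member promoters (19.0%), against 4.18% of all 33469 promoters. By class, 7 of 27 ligand promoters (25.9%) and 1 of 15 receptor promoters (6.67%) held it. The matches were in Ccl9, Ccl20, Cxcl1, Cxcl2, Cxcl6, Cxcl10, Cxcl11 and the eosinophil receptor Ccr3. The TATA motif TATAAA was found in 12 of 42 (28.6%, against 14.2% of all promoters) and the AP-1 motif TGANTCA in 7 of 42 (16.7%, against 7.33%), both again on either strand. A match is a run of letters in this window and not a measured binding site.

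Windows of 40 bases around the decamer, with the matched letters in capitals, are given 5′ to 3′ for neutrophil ligands and interferon inducible ligands, so that their cores can be compared with each other and with the small differences of these genes.
Cxcl1 (GRCr8 chr14:17479381-17479420, minus strand): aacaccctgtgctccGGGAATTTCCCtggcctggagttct
Cxcl2 (GRCr8 chr14:17467305-17467344, minus strand): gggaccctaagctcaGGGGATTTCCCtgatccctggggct
Cxcl6 (GRCr8 chr14:17596481-17596520, minus strand): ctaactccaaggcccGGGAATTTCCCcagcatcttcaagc
Cxcl10 (GRCr8 chr14:15988864-15988903, plus strand): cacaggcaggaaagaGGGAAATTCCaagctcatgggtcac
Cxcl11 (GRCr8 chr14:15973639-15973678, plus strand): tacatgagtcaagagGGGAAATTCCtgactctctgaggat
The capitals are identical in Cxcl1 and Cxcl6, and identical in Cxcl10 and Cxcl11. In all of them the match lies between 74 and 187 bases before the start. The whole promoter of Ccl20, the ligand with the lowest unadjusted p among the ligands, is shown with its match at position -89 from the start in capitals, followed by that of Xcr1, the receptor with an unadjusted p under 0.05 in all 17 refits, which has no decamer and a TGANTCA match at position -17, left in lower case.
Ccl20 (GRCr8 chr9:91836909-91837208, plus strand): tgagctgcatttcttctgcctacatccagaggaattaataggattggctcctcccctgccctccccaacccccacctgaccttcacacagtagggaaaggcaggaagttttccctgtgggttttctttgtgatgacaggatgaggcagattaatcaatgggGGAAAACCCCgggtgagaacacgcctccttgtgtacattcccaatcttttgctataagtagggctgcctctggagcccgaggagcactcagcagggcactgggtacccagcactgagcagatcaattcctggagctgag
Xcr1 (GRCr8 chr8:132364607-132364906, minus strand): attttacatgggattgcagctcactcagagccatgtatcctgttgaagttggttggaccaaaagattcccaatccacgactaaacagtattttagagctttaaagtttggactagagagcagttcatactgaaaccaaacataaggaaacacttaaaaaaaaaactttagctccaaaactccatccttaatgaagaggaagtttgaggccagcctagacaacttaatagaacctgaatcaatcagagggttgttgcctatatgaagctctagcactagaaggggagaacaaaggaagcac

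With limma, 0 of the 53 members passed an adjusted p under 0.05, as was the case for all 28826 probes (0.0%), of which the one nearest to the threshold had an adjusted p of 0.324. With p unadjusted and the same threshold, 1 member was higher in MetS, the T cell homing receptor Cxcr6, and 4 were lower, the dendritic cell receptor Xcr1, the receptor gene Ccr1l1, the T cell receptor for interferon inducible ligands Cxcr3, and the mucosal ligand Ccl20. These 5 of 53 are 9.43%, below the 13.7% of all probes and the 13.1% of probes with 1 symbol at the same threshold. By direction, 3.82% of all probes were higher and 9.91% lower. The 3 MetS and 4 control animals did not overlap for 3 members, Ccl20, Cxcr3 and Xcr1, all lower in MetS, which is 5.66% against 11.7% of all probes (4.88% higher and 6.84% lower). In this fit the members' share was below that of the array by both criteria, which did not hold in all alternatives. The share at an unadjusted p under 0.05 was above that of the array in 7 of 17 refits. It was 15.1% of the members with the SD of each animal as a covariate, against 3.55% of all probes, and 17.0% without MetS animal 1, against 7.94%. It was 9.43% without control animals 2 and 3, against 5.24%, and 9.43% without control animal 3, against 8.05%. With all 9 arrays and the animal as a random block it was 15.1%, against 13.3%, with brighter probes alone 12.2%, against 10.1%, and without MetS animal 2 it was 7.55%, against 7.52%.

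More members lay below than above zero. Of the 53, 37 (69.8%) had a negative difference, against 38.6% of probes with 1 symbol and 46.7% of all probes. The median difference of the members was -0.08, with a range from -0.63 for Ccl2 to 0.65 for Cxcr6, and the median over all genes with 1 symbol was 0.04. Signalling receptors were below zero in 14 of 17 cases (median -0.12) and ligands in 20 of 33 (median -0.06). Quantile normalizing the arrays again left 12 of 17 receptors (median -0.13) and 15 of 33 ligands below zero, and turned the ligand median to 0.02. All probes moved upwards as well in that fit, with 38.4% below zero and a median of 0.04. With the SD of each animal as a covariate, 12 of 17 receptors and 20 of 33 ligands were below zero, against 48.3% of all probes. Of the 53 differences, 28 (52.8%) were larger than both differences between arrays of 1 animal. The share of all probes for which this holds was not counted, so that 52.8% has no array share beside it. The medians of the differences between arrays were 0.08 and 0.09 over the members, against 0.06 and 0.08 over all probes.

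With the SD of each animal in the fit, 0 members were higher at an unadjusted p under 0.05 and 8 were lower (15.1%, against 1.87% of all probes lower), Ackr3, Ccl2, Ccl22, Ccl24, Ccr3, Ccr4, Cxcl1 and Xcr1. Of these, Xcr1 alone was among the 5 of the fit without the covariate. The neutrophil ligand Cxcl1 differed by -0.65 in this fit (SE 0.13), against -0.24 without the covariate. Ccr4, the Th2 cell receptor, differed by -0.63 (SE 0.15), against -0.13, and the monocyte ligand Ccl2 by -1.07 (SE 0.33), against -0.63. The eosinophil receptor Ccr3 differed by -0.86 (SE 0.30), against -0.52, its ligand Ccl24 by -0.53 (SE 0.18), against -0.31, and the scavenging receptor Ackr3 by -0.33 (SE 0.10), against 0.00. Other differences shrank, among them those of Ccr1l1 (-0.08, against -0.45), Cxcr2 (0.04, against 0.40), Ccl9 (0.13, against 0.50) and Cxcr3 (-0.09, against -0.17). The sign changed for 12 of 53 members, and the adjusted p was 0.999 for all of them. The median SE over the members was 0.16 with the covariate and 0.13 without it.

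**Figure D1:**
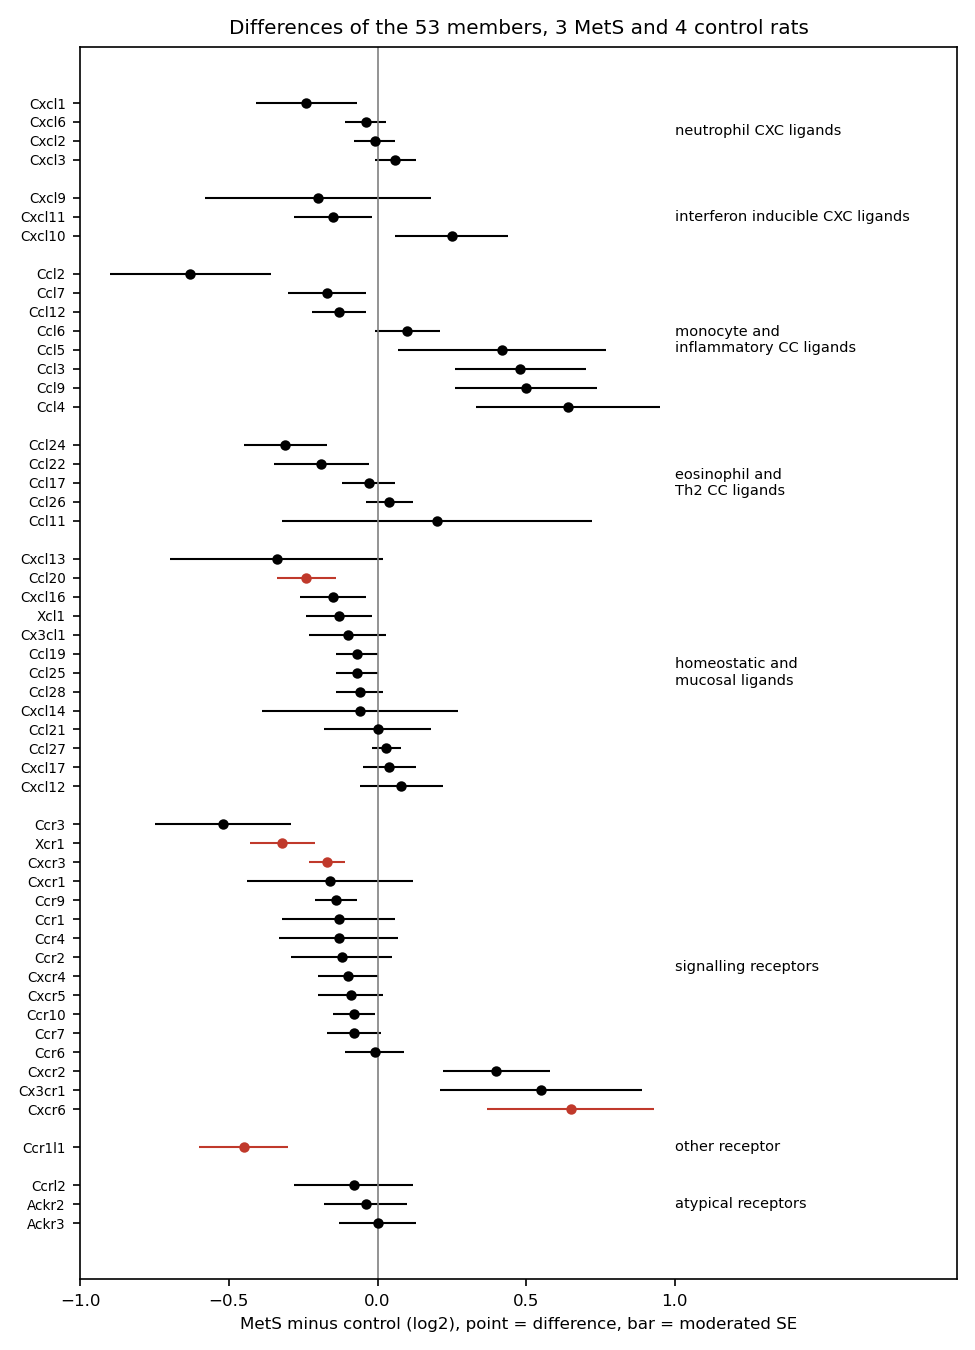
MetS minus control differences of all 53 members on the log2 scale, grouped by role, with the point at the difference and the bar spanning 1 moderated standard error (SE) on each side. The 5 members with an unadjusted p under 0.05 are in red; most points lie close to zero, and Ccl4, Cxcr6 and Cx3cr1 lie farthest to the right.

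The animals of a group differed from each other more for the members than over all probes. The probes were not matched to the members in brightness, and 7.55% of the members lay at or below the 25th percentile of probe means. The within-group SD had a median of 0.20 over the members, with a range from 0.03 to 0.81, against 0.13 over all probes. The MetS range was wider than the control range for 25 of 53 members (47.2%), against 26.8% of all probes. The lowest of the 7 values stood in MetS animal 1 for 18 members (34.0%, against 19.2% of all probes), and the highest in control animal 4 for 14 members (26.4%, against 8.95%). Both animals recur in the values below.

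**Figure D2:**
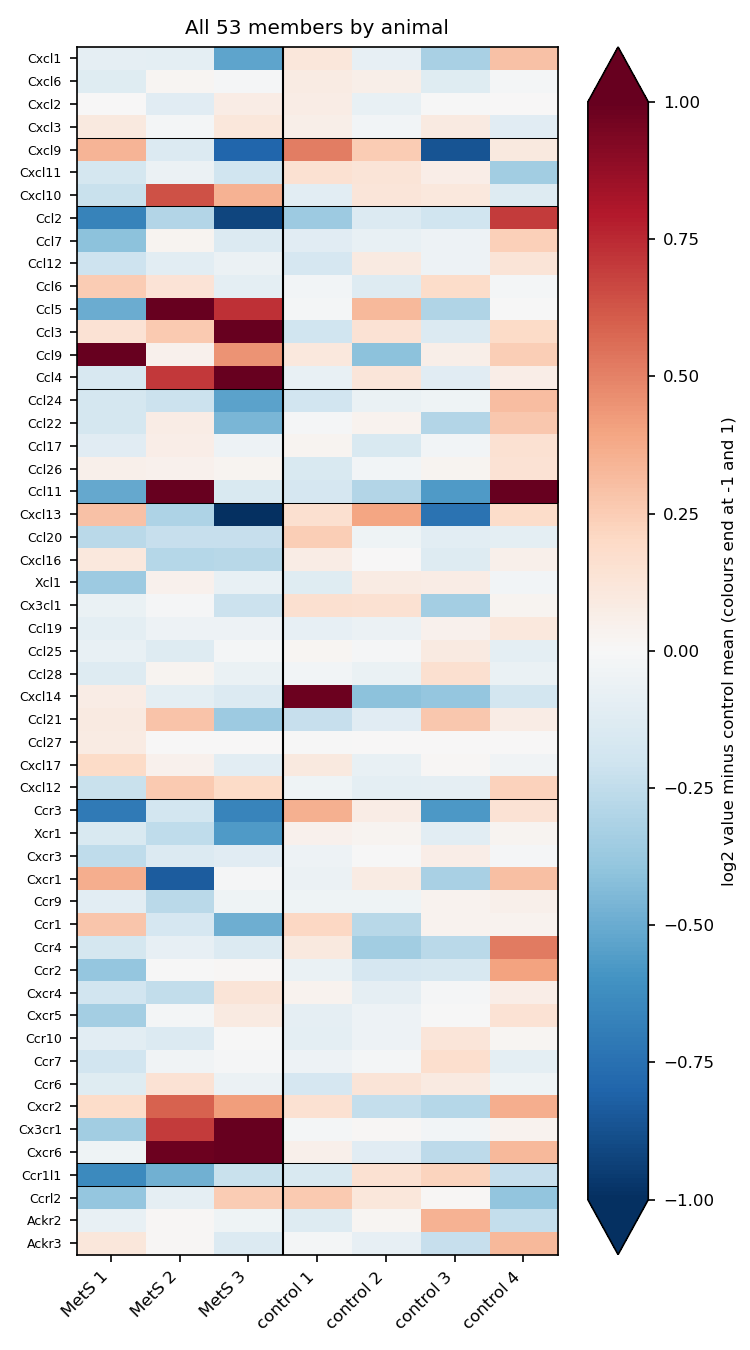
Values of all 53 members in each animal, shown as the log2 value minus the mean of the 4 controls, with MetS animals left of the black line and horizontal lines between the role groups; colours end at -1 and 1. MetS animals 2 and 3 are red for Ccl5, Ccl4, Cx3cr1 and Cxcr6 where MetS animal 1 is blue or pale, and control animal 4 is red for Ccl2, Ccl11 and Ccr4.

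Xcr1, the receptor of cross-presenting dendritic cells for Xcl1, read 7.61, 7.51 and 7.19 in the MetS rats, against 7.81, 7.79, 7.66 and 7.79 in the controls. Each MetS value lay under each control value, though MetS animal 1 and control animal 3 were only 0.05 apart. The difference was -0.32 (SE 0.11, limma, adjusted p = 0.324), or 1.25-fold lower in MetS. It kept an unadjusted p under 0.05 in all 17 refits, 7 of them without 1 animal, with differences from -0.47 to -0.20 and adjusted p from 0.115 to 0.999. The groups overlapped when the arrays were quantile normalized again or when the first array of each animal was used alone. Its ligand Xcl1, which is made by NK and CD8 T cells, read 7.13, 7.54 and 7.42 in MetS, against 7.37, 7.57, 7.57 and 7.46 in controls, and its groups overlapped (difference -0.13, adjusted p = 0.583). Of the dendritic cell markers, 4 of 5 were measured and none had an unadjusted p under 0.05. Their mean ranged from 7.57 to 7.72 in MetS and from 7.53 to 7.76 in controls, and Clec9a, a marker of the same dendritic cells, read 7.15, 7.08 and 6.90 in MetS, against 7.10, 7.18, 6.89 and 7.20 in controls (difference -0.05). The part of dendritic cell number in the Xcr1 values was not tested.

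Ccl20, which draws Ccr6-bearing lymphocytes and dendritic cells to mucosal surfaces, read 7.00, 7.04 and 7.04 in MetS, against 7.51, 7.23, 7.16 and 7.17 in controls. The MetS values were nearly equal and the controls differed, with control animal 1 the highest. The difference was -0.24 (SE 0.10, adjusted p = 0.344), and it was -0.16 without control animal 1. The 2 arrays of control animal 1 were themselves 0.21 apart for this gene, and the groups overlapped when the arrays were quantile normalized again. Ccr6, its receptor, read 6.39, 6.66 and 6.45 in MetS, against 6.34, 6.64, 6.60 and 6.47 in controls, a difference of -0.01 (adjusted p = 0.969) with both groups spread over the same values.

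Cxcr3 guides activated T and NK cells along the interferon inducible ligands. It read 7.62, 7.74 and 7.76 in MetS, against 7.83, 7.87, 7.94 and 7.86 in controls. The groups did not overlap, and the difference of -0.17 (SE 0.06, adjusted p = 0.340) compares with 0.13 and 0.20 between the arrays of 1 animal. The groups overlapped when the first array of each animal was used alone. Its ligands went both ways without passing the test. Cxcl9 read 10.13, 9.65 and 8.99 in MetS, against 10.30, 10.04, 8.93 and 9.89 in controls. MetS animal 3 and control animal 3 were the low ones, and the groups shared their range. Cxcl10 read 7.56, 8.42 and 8.13 in MetS, against 7.68, 7.91, 7.89 and 7.66 in controls, with MetS animals 2 and 3 above each control and MetS animal 1 below each. Cxcl11 read 6.92, 7.03 and 6.89 in MetS, against 7.25, 7.22, 7.16 and 6.74 in controls, where the lowest of all was control animal 4. The differences were -0.20 for Cxcl9, 0.25 for Cxcl10 and -0.15 for Cxcl11, with adjusted p between 0.552 and 0.814. The kappaB matches of Cxcl10 and Cxcl11 shown above share their core. The signs of their differences were opposite here and alike with the SD of each animal in the fit (0.54 for Cxcl10 and 0.06 for Cxcl11), where Cxcl9 stood at -0.86.

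Ccr1l1, a rodent receptor gene related to Ccr1, falls outside the rule for genes described by animal and was added after its values were seen. It averaged 6.92 ± 0.21 in MetS (SD, n = 3) and 7.37 ± 0.22 in controls (SD, n = 4), a difference of -0.45 (SE 0.15, adjusted p = 0.324). The groups touched, since MetS animal 3 at 7.15 lay above control animal 4 at 7.14. Ccr1, a receptor of monocytes and neutrophils for Ccl3, Ccl5 and related ligands, averaged 8.81 ± 0.39 in MetS (SD, n = 3) and 8.94 ± 0.20 in controls (SD, n = 4). Probe sequences were not used here, so signal shared between close paralogs such as Ccr1 and Ccr1l1, Cxcl1 to Cxcl3, or Ccl6 and Ccl9 cannot be told apart.

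**Figure D3:**
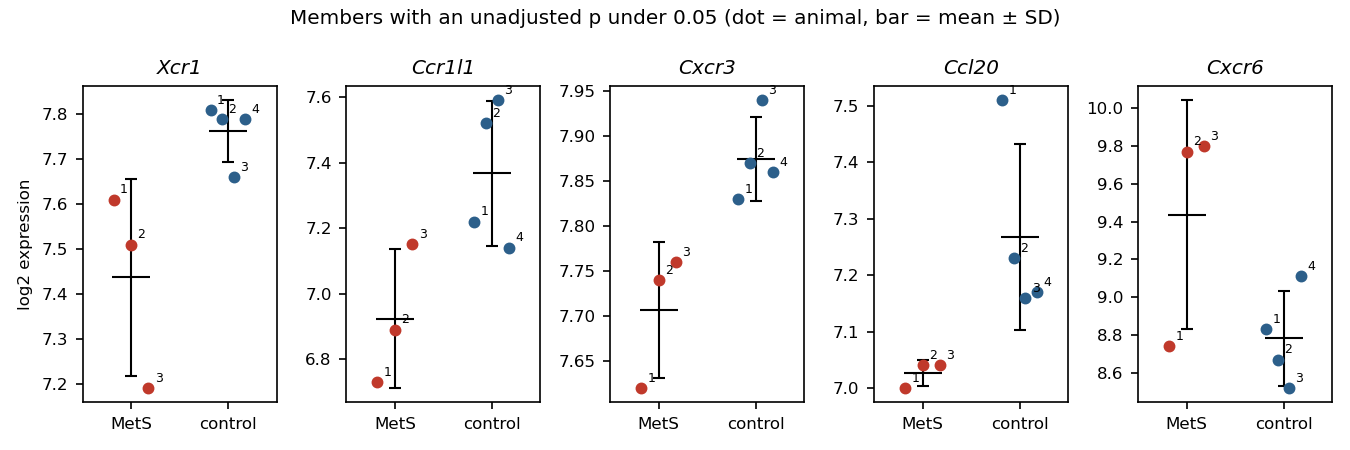
Log2 expression in each animal for the 5 members with an unadjusted p under 0.05, with MetS in red left of controls in blue; dots are animals with their numbers, and bars are the mean ± SD (n = 3 and n = 4). Xcr1, Cxcr3 and Ccl20 show no overlap, Ccr1l1 touches at 7.15 and 7.14, and Cxcr6 has MetS animal 1 at 8.74 among the controls. Axes do not start at 0.

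Cxcr6 had the widest positive difference of the members. This receptor, carried by tissue-homing T cells and NKT cells, read 8.74, 9.77 and 9.80 in MetS, against 8.83, 8.67, 8.52 and 9.11 in controls. MetS animals 2 and 3 stood above each control, and MetS animal 1 stood among the controls. The difference was 0.65 (SE 0.28, adjusted p = 0.362), or 1.57-fold, and 1.00 without MetS animal 1. Its ligand Cxcl16, a membrane-bound chemokine of macrophages and epithelium, read 11.14, 10.76 and 10.76 in MetS, against 11.12, 11.04, 10.91 and 11.09 in controls. Here MetS animals 2 and 3 were below each control and MetS animal 1 above each, so that ligand and receptor ran in opposite directions within the MetS group (difference -0.15, adjusted p = 0.532).

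The same MetS animals 2 and 3 stood above all controls for several inflammatory CC ligands and for Cx3cr1. Ccl4, a ligand made by T cells, NK cells and macrophages, read 7.96, 8.82 and 9.47 in MetS, against 8.04, 8.24, 8.0 and 8.18 in controls. Ccl5, made by T cells and platelets, read 9.99, 11.49 and 11.22 in MetS, against 10.47, 10.81, 10.19 and 10.48 in controls. In both genes MetS animal 1 was the lowest of the 7. Cx3cr1, the fractalkine receptor of monocytes and cytotoxic lymphocytes, read 8.0, 9.05 and 9.63 in MetS, against 8.33, 8.36, 8.32 and 8.38 in controls. The controls lay within 0.06 of each other, while the MetS animals spanned 1.63. The differences were 0.64 (SE 0.31) for Ccl4, 0.42 (SE 0.35) for Ccl5 and 0.55 (SE 0.34) for Cx3cr1, with adjusted p of 0.406, 0.585 and 0.476. Without MetS animal 1 they were 1.04, 0.87 and 0.99, each with an adjusted p of 0.590. Ccl3, the close relative of Ccl4, averaged 9.34 ± 0.48 in MetS (SD, n = 3) and 8.86 ± 0.20 in controls (SD, n = 4), with an adjusted p of 0.386. Cx3cl1, the ligand of Cx3cr1, read 8.35, 8.41 and 8.21 in MetS, against 8.58, 8.57, 8.08 and 8.45 in controls, with no such split and a difference of -0.10.

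MetS animal 1 decided the counts on the high side. Without it, 7 members were higher with no overlap, Ccl3, Ccl4, Ccl5, Cx3cr1, Cxcl10, Cxcr2 and Cxcr6 (13.2% of the members), against 9.86% of all probes in the same fit, and the same 7 were higher at an unadjusted p under 0.05 (13.2%, against 3.25% of all probes), where 1 was with all animals. The high count at that threshold was 0 without MetS animal 3, control animal 2 or control animal 3 (2.67%, 1.82% and 2.12% of all probes), and 2 without control animal 4 (3.77%, against 6.99%). The low count was 4 with all animals and 2 (3.77%) without MetS animal 1 or without control animal 2, against 4.70% and 6.46% of all probes. Members higher with no overlap numbered 0 with all animals and 2 (3.77%) without MetS animal 2, against 8.62% of all probes. They numbered 1 (1.89%) without MetS animal 3, control animal 1 or control animal 4, against 10.8%, 8.45% and 12.3% of all probes. Members lower with no overlap, 3 with all animals, numbered 5 (9.43%, against 8.63%) without MetS animal 1 and 7 (13.2%, against 14.2%) without MetS animal 3. They numbered 6 (11.3%) without MetS animal 2 or control animals 1, 3 or 4 in turn, against 9.80%, 9.0%, 7.23% and 16.4% of all probes.

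The mean of the T cell markers and 4 of its 7 measured genes divided the MetS animals in the same way. Of 8 markers, 7 were measured, and their mean was 8.23, 8.87 and 8.71 in the MetS rats, against 8.55, 8.36, 8.51 and 8.64 in the controls. Cd8a, the co-receptor of cytotoxic T cells, read 7.83, 8.73 and 8.68 in MetS, against 8.18, 8.33, 8.24 and 8.27 in controls. Cd3e, a subunit of the T cell receptor complex, read 8.46, 9.10 and 9.14 in MetS, against 8.82, 8.53, 8.80 and 8.92 in controls. For both genes, and for Cd5 and the kinase gene Lck, MetS animals 2 and 3 lay above each control and MetS animal 1 below each. For Cd5 and Lck the split was narrow. MetS animal 3 read 8.49 for Cd5, against 8.48 in control animal 4, and 8.52 for Lck, against 8.51 in control animal 4. MetS animal 1 read 7.87 for Cd5, against 7.92 in control animal 2. The share of all probes with this pattern was not counted, so that 4 of 7 has no array share beside it. MetS animal 1 held the lowest value for 19.2% of all probes, and 9.86% were higher with no overlap when it was left out. Cd3d, Cd3g and Cd4 did not divide them so, with 7.29, 7.71 and 7.34 for Cd3d, 8.59, 9.29 and 8.92 for Cd3g and 9.72, 9.71 and 9.91 for Cd4 in MetS. In controls Cd3d read 7.40, 6.93, 7.29 and 7.36, Cd3g 9.03, 8.65, 8.89 and 9.14, and Cd4 9.76, 9.84, 9.67 and 9.83. The 6 NK cell markers averaged 8.89, 9.56 and 9.24 in MetS, against 9.15, 9.80, 9.05 and 9.15 in controls, where control animal 2 was the highest. The 3 measured of 6 B cell markers averaged 7.98, 8.60 and 8.30 in MetS, against 8.31, 8.21, 8.47 and 8.63 in controls. The 8 macrophage and monocyte markers averaged 10.07, 9.79 and 9.93 in MetS, against 10.04, 9.97, 9.87 and 9.94 in controls, with MetS animal 1 the highest. None of these markers had an unadjusted p under 0.05 between the groups, and the part of lymphocyte number in the Ccl5, Ccl4, Cxcr6 and Cx3cr1 values was not tested.

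**Figure D4:**
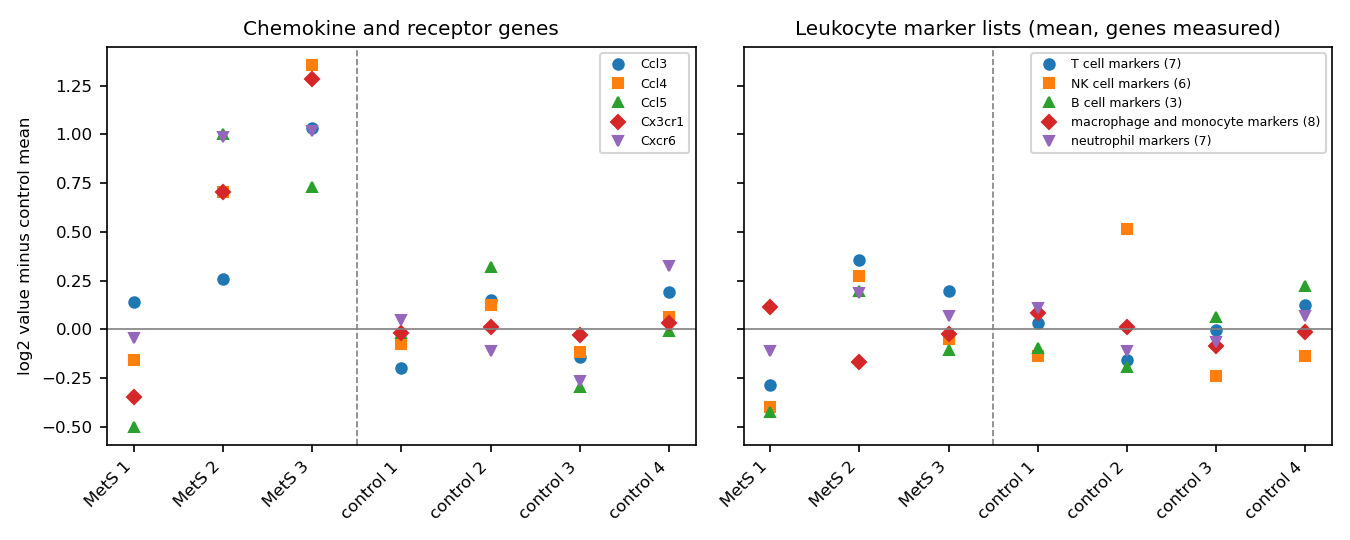
Log2 value minus the mean of the 4 controls in each animal, for Ccl3, Ccl4, Ccl5, Cx3cr1 and Cxcr6 (left panel) and for the mean of 5 leukocyte marker lists (right panel, number of genes measured in brackets), with MetS animals left of the dashed line. MetS animals 2 and 3 lie above the controls for the 5 genes, MetS animal 1 lies below zero except for Ccl3, and the T cell mean splits the MetS animals in the same way at a smaller size.

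The other monocyte ligands did not follow this split. Ccl2, the main ligand of Ccr2 on inflammatory monocytes, read 9.15, 9.53 and 8.90 in MetS, against 9.46, 9.68, 9.62 and 10.52 in controls. Control animal 4 was high and MetS animal 2 lay above control animal 1. The difference of -0.63 (SE 0.27, adjusted p = 0.366) was the lowest of the members and became -0.40 without control animal 4 and -1.07 with the SD of each animal in the fit. Ccr2 itself, the receptor that lets monocytes leave the marrow, read 8.86, 9.24 and 9.26 in MetS, against 9.18, 9.08, 9.08 and 9.65 in controls, also with control animal 4 the highest (difference -0.12, adjusted p = 0.733). Ccl9, a rodent ligand of Ccr1, read 10.56, 9.61 and 10.01 in MetS, against 9.67, 9.15, 9.62 and 9.81 in controls, here with MetS animal 1 the highest (difference 0.50, adjusted p = 0.403). Its neighbour in the genome Ccl6 read 12.27, 12.16 and 11.92 in MetS, against 11.99, 11.89, 12.20 and 12.00 in controls (difference 0.10, adjusted p = 0.675). Of the 8 monocyte and inflammatory CC ligands, 5 were above and 3 below zero, with a median of 0.26 (0.10 with the SD of each animal in the fit).

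Several of these genes are neighbours in the genome. In the GRCr8 annotation Ccl5, Ccl9, Ccl6, Ccl3 and Ccl4 stand next to each other on chromosome 10 with no other protein-coding gene between them, and their differences were 0.42, 0.50, 0.10, 0.48 and 0.64. Ccl2, Ccl7, Ccl11 and Ccl12 form another such run on the same chromosome, with -0.63, -0.17, 0.20 and -0.13. The receptor genes Cxcr6, Xcr1, Ccr1, Ccr1l1, Ccr3 and Ccr2, in the order of their start sites on chromosome 8, held both the highest value, 0.65 for Cxcr6, and its immediate neighbour Xcr1 at -0.32. No gene of these runs passed the adjusted test, and the order is given as a description.

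Among the eosinophil ligands Ccl11 varied most within the groups, with an SD of 0.95 in MetS and 0.71 in controls. Ccl24 had SDs of 0.20 and 0.21, near the within-group median of 0.20 over the members, and the receptor Ccr3 had 0.29 and 0.40. Ccl11, the eotaxin that calls eosinophils into the airways, read 9.45, 11.25 and 9.81 in MetS, against 9.80, 9.67, 9.40 and 11.00 in controls. In each group 1 animal, MetS animal 2 and control animal 4, stood more than 1 above the others (difference 0.20, SE 0.52, adjusted p = 0.863). Ccl24, another eotaxin, read 7.69, 7.65 and 7.33 in MetS, against 7.67, 7.80, 7.82 and 8.17 in controls (difference -0.31, adjusted p = 0.382). Ccr3, the receptor for both, read 7.00, 7.52 and 7.05 in MetS, against 8.07, 7.79, 7.14 and 7.85 in controls. Only control animal 3 reached down among the MetS values, and the difference was -0.52 (SE 0.23, adjusted p = 0.380), or 1.43-fold lower in MetS. The arrays of 1 animal were 0.26 apart for Ccr3 in both animals with a repeat. Of 8 mast cell and eosinophil markers, 7 were measured, with means from 7.25 to 7.70 in MetS and from 7.21 to 7.60 in controls and none at an unadjusted p under 0.05. The lowest single value of any marker list was in this one, 4.76 for the basophil protease Mcpt8 in MetS animal 1. The Th2 ligands Ccl17 and Ccl22, which bind Ccr4, had differences of -0.03 and -0.19. With the SD of each animal in the fit all 5 eosinophil and Th2 ligands were below zero, with a median of -0.48, where 3 of 5 were below zero and the median was -0.03 without it. Ccl11 turned to -0.51 and Ccr3 stood at -0.86 in that fit (adjusted p = 0.999), and Ccr3 at -0.77 without control animals 2 and 3 (adjusted p = 0.914).

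The neutrophil ligands had differences near zero except for Cxcl1. Cxcl1, the main neutrophil attractant of rodents, read 8.83, 8.83 and 8.40 in MetS, against 9.04, 8.84, 8.60 and 9.22 in controls (difference -0.24, adjusted p = 0.533). Its difference was -0.65 with the SD of each animal in the fit (adjusted p = 0.999) and -0.44 without control animals 2 and 3 (adjusted p = 0.914). Cxcl2, a macrophage product acting on the same receptor, read 6.49, 6.37 and 6.56 in MetS, against 6.56, 6.42, 6.49 and 6.49 in controls. Cxcl3, a further ligand of this group, read 11.12, 11.00 and 11.13 in MetS, against 11.08, 11.00, 11.11 and 10.90 in controls. Their differences were -0.01 and 0.06, and that of Cxcl6 was -0.04. The promoters of Cxcl1, Cxcl2 and Cxcl6 with their like decamers thus belonged to genes with differences between -0.24 and -0.01. Cxcr2, the shared receptor of these ligands on neutrophils, read 9.20, 9.61 and 9.43 in MetS, against 9.17, 8.78, 8.74 and 9.38 in controls. The MetS values lay at the upper end, with control animal 4 alone reaching into them, and the difference was 0.40 (SE 0.18, adjusted p = 0.382) but 0.04 with the SD of each animal in the fit. Cxcr1, the sister receptor of Cxcr2, read 10.59, 9.39 and 10.21 in MetS, against 10.17, 10.31, 9.90 and 10.53 in controls, where MetS animal 2 was the low one (difference -0.16, adjusted p = 0.798). The 7 neutrophil markers averaged 7.85 to 8.15 in MetS and 7.85 to 8.07 in controls.

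Of 13 homeostatic and mucosal ligands, Ccl20 included, 9 were below and 4 above zero, with a median of -0.07. Cxcl12, the stromal ligand that retains leukocytes and progenitors, read 8.79, 9.28 and 9.21 in MetS, against 8.98, 8.92, 8.93 and 9.25 in controls (difference 0.08, adjusted p = 0.802). Cxcr4, its signalling receptor, read 8.87, 8.82 and 9.19 in MetS, against 9.10, 8.97, 9.05 and 9.12 in controls (difference -0.10, adjusted p = 0.644). Ackr3, which scavenges Cxcl12, read 11.79, 11.69 and 11.54 in MetS, against 11.66, 11.60, 11.45 and 12.00 in controls, with equal means of 11.68 in both groups and a difference of -0.33 with the SD of each animal in the fit (adjusted p = 0.999). The groups overlapped for all 3 genes of this axis.

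Among the lymphoid ligands Cxcl13, the B cell attractant of follicles, read 8.65, 8.04 and 7.36 in MetS, against 8.51, 8.75, 7.62 and 8.53 in controls. MetS animal 3 and control animal 3 were low for it, as they were for Cxcl9, and the difference was -0.34 (SE 0.36, adjusted p = 0.667), or -0.90 with the SD of each animal in the fit. Its receptor Cxcr5 read 7.68, 8.0 and 8.11 in MetS, against 7.93, 7.97, 8.02 and 8.16 in controls. Ccl19 and Ccl21 guide dendritic cells and naive T cells through Ccr7. Ccl19 read 6.97, 7.02 and 7.02 in MetS, against 6.98, 7.01, 7.11 and 7.17 in controls. Ccl21 read 9.53, 9.73 and 9.08 in MetS, against 9.21, 9.33, 9.71 and 9.52 in controls. Ccr7 read 8.47, 8.63 and 8.65 in MetS, against 8.61, 8.64, 8.83 and 8.57 in controls. The differences were -0.09 for Cxcr5, -0.07 for Ccl19, 0.00 for Ccl21 and -0.08 for Ccr7, all with overlapping groups. The 4 genes listed as markers of lymphatic endothelium, a source of Ccl21, averaged 9.32 to 9.59 in MetS and 9.31 to 9.50 in controls. That mean joined levels from 6.17 for Prox1 to 12.94 for Pdpn over the animals. It was not a measure of the cells that make Ccl21. Cxcl17, a chemokine of airway mucosa, read 11.19, 11.04 and 10.89 in MetS, against 11.09, 10.92, 11.01 and 10.96 in controls (difference 0.04, adjusted p = 0.818).

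**Figure D5:**
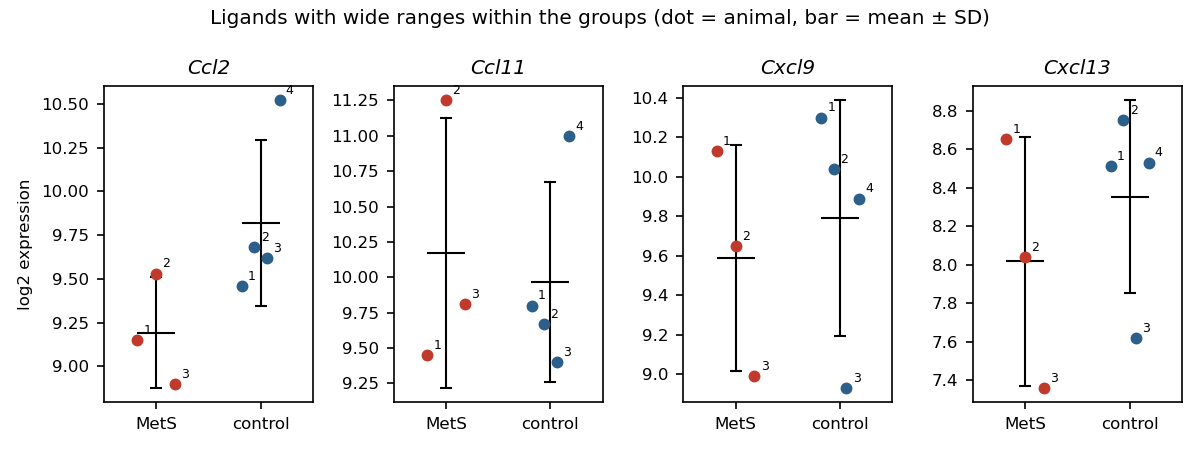
Log2 expression in each animal for Ccl2, Ccl11, Cxcl9 and Cxcl13, ligands with wide ranges within the groups, with MetS in red left of controls in blue; dots are animals with their numbers, and bars are the mean ± SD (n = 3 and n = 4). Control animal 4 is the highest control for Ccl2 and Ccl11, and MetS animal 3 and control animal 3 are the lowest of their groups for Cxcl9 and Cxcl13. Axes do not start at 0.

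The remaining members are summarised. The mucosal and skin ligands Ccl25, Ccl27, Ccl28 and Cxcl14 had differences between -0.07 and 0.03, and the receptors Ccr4, Ccr9 and Ccr10 between -0.14 and -0.08. With the SD of each animal in the fit Cxcl14 stood at -0.51 and Ccr4 at -0.63. The monocyte ligands Ccl7 and Ccl12 stood at -0.17 and -0.13, and the eotaxin-like Ccl26 at 0.04. Among atypical receptors, Ackr2, which clears inflammatory CC chemokines, averaged 7.46 ± 0.04 in MetS (SD, n = 3) and 7.50 ± 0.26 in controls (SD, n = 4). Ccrl2, which holds chemerin on the cell surface, averaged 7.95 ± 0.32 in MetS (SD, n = 3) and 8.02 ± 0.28 in controls (SD, n = 4). At the dim end, 4 of 53 members, Ccl12, Ccl25, Ccl26 and Cxcl6, had a mean at or below the 25th percentile of all probes (6.48). Ccl27 had the same deposited value, 7.39, on 5 of 9 arrays, and Ccl28 and Ccr9 each had 1 value on 4 of 9.

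Genes that act around the chemokines gave few calls as well. Of all 14497 genes with 1 symbol, 13.0% had an unadjusted p under 0.05 and 38.0% lay below zero, with a median of 0.04. The shares below zero were 50.0% for the upstream genes, 23.1% for intracellular signalling and 35.3% for adhesion. Of 20 upstream cytokines and NF-kappaB feedback genes 18 were measured, with 9 above and 9 below zero. One had an unadjusted p under 0.05, the inflammatory cytokine Il6, which read 5.11, 5.14 and 5.09 in MetS, against 5.42, 5.52, 5.68 and 5.19 in controls. Its groups did not overlap and the difference was -0.34 (SE 0.11, adjusted p = 0.324), at a level below the 25th percentile of probe means. Nfkbia, the NF-kappaB inhibitor, read 10.84, 10.76 and 11.12 in MetS, against 10.79, 10.33, 10.27 and 10.76 in controls (difference 0.37, adjusted p = 0.374), and Tnf differed by -0.13. Of 29 genes of intracellular chemokine signalling 26 were measured, 20 above and 6 below zero with a median of 0.07 and none at an unadjusted p under 0.05. Of 19 leukocyte adhesion genes 17 were measured, 11 above and 6 below zero with a median of 0.03 and again none at that threshold. Among them Itga4, the integrin subunit by which lymphocytes and monocytes adhere, read 9.22, 9.65 and 9.95 in MetS, against 9.37, 9.21, 9.15 and 9.39 in controls, with MetS animals 2 and 3 above each control. The platelet chemokine Pf4, whose symbol lies outside the rule, read 8.33, 8.84 and 8.37 in MetS, against 8.47, 7.80, 7.90 and 8.20 in controls (difference 0.42, adjusted p = 0.389). The other platelet chemokine, Ppbp, differed by -0.07, and 3 of 5 platelet markers, Pf4 and Ppbp among them, averaged 8.03 to 8.54 in MetS and 7.87 to 8.29 in controls.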

How the data were processed

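The authors deposited log2 expression values, 1 column per array. Per the submitters' processing notes, R 2.11.0, RMA and limma are named, without their roles. No build is given in the sources used here. Per the labels' protocols, RNA was extracted with Trizol, kept at an integrity number of at least 6 and labelled with biotin from 50 ng.

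Arrays of 1 animal were averaged. A linear model (limma 3.58.1, R 4.3.3, with empirical Bayes moderation) compared 3 MetS with 4 control animals over all 28826 probes, with Benjamini-Hochberg adjustment over all of them, a threshold of 0.05 and 7.28 degrees of freedom. It was tested on simulated data. The platform's annotation table gave 1 symbol for 15209 probes, several for 306 and none for 13311; the probe with the highest mean stood for a gene. Updating symbols through RefSeq gave the same 53 members. Tables used pandas 2.3.3 and numpy 2.4.6 in Python 3.11.15, and figures matplotlib 3.10.9.

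The members, the lists and the rule for named genes were chosen with earlier results of these data known. The rule gives each animal's value for the 10 members with the highest mean, members whose groups do not overlap, the 6 with the widest range and listed ligand and receptor pairs, and up to 3 genes of each other list. The T cell list went beyond this rule, since all 7 of its measured markers were named beside the split of the MetS animals. Alternatives were 1 array per animal, a random block for the animal over all 9 arrays, centring, quantile normalization again, the SD of each animal as a covariate, tests on brighter or named probes only, a trended robust prior, other probe and symbol choices, the replicate number as a block, and leaving out animals. The promoters are from RefSeq, assembly GRCr8.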

Additional observations from a re-analysis of the deposited data

Results flagged for a closer look

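In 5 of 53 members (9.43%) 1 control animal stood apart from the other controls, against 7.6% of all probes. Its gap to the nearest neighbour, as a share of the control range, was past Dixon's limit for 4 samples. Chance gives such a gap in about 1 in 20 groups, and a small gap can pass where the other controls are close together. Control animal 3 was the lowest for Xcr1 at 7.66, where the other controls read 7.79 to 7.81. Control animal 1 was the highest for Cxcl14, an epithelial chemokine, at 9.14, and the lowest for Ccl27 at 7.38, where the other controls had the same value of 7.39. The Ccl27 flag rests on these tied values. Its deviations from the control mean were -0.003 for control animal 1 and 0.001 for each other control. Control animal 4 was the highest for the monocyte ligand Ccl7 at 7.00 and for the stromal ligand Cxcl12 at 9.25. The MetS group, with 3 animals, was not examined in this way.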

How the results depend on the processing

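The count of members at an adjusted p under 0.05 was 0 in all alternatives except the replicate number as a block, where it was 1 (Ccr1l1, difference -0.52, adjusted p = 0.0305) while 2017 of all 28826 probes passed. Whether the numbers pair the animals cannot be told from 3 pairs. The deviations of same-numbered animals correlated at 0.271, -0.118 and 0.339, and 1 of 3 MetS animals was most like its own number. With this replicate block 3 members were higher at an unadjusted p under 0.05 (5.66%, against 7.65% of all probes), and 1 without it. That higher count was 0 with the SD of each animal as a covariate, after quantile normalization again and without control animals 2 and 3 (1.68%, 8.02% and 1.43% of all probes), 2 with the first array alone (3.77%, against 3.36%) and 4 with all 9 arrays and the animal as a random block (7.55%, against 3.86%). The lower count, 4, became 8 with the SD covariate (15.1%, against 1.87%). Leaving out 1 animal in turn gave 0 to 7 higher and 2 to 6 lower at that threshold, against 1.82% to 6.99% and 4.7% to 14.4% of all probes. The count of 6 lower, without control animal 1, was 11.3% of the members, against 10.2% of all probes. With no overlap there were 0 to 7 higher and 3 to 7 lower, against 5.62% to 12.3% and 7.23% to 16.4% of all probes. Without control animals 2 and 3 those without overlap were 1 higher and 7 lower (9.78% and 9.30% of all probes). Of 665 differences of named genes under alternatives, 625 kept their direction, and 20 of 35 genes kept it throughout. Part of the 625 was fixed in advance. The trended robust prior, the tests on brighter or named probes only, and the other probe and symbol choices leave each difference as it was. With the SD covariate the sign turned for Ccl11 (-0.51), Ccr6 (0.14), Ccr7 (0.08), Cxcl11 (0.06), Cxcl12 (-0.01), Cxcl17 (-0.04) and Xcl1 (0.03); after quantile normalization again for Ccl19 (0.02), Ccl21 (-0.06), Ccr6 (0.15) and Cxcl2 (0.15); with the replicate block for Ackr3 (0.10) and Ccr2 (0.01); with all 9 arrays for Ackr3 (0.00); after centring for Ackr3 (0.01) and Ccr6 (0.00); with the first array alone for Ccl21 (-0.04); and without control animals 2 and 3 for Ccl11 (-0.23), Ccr6 (0.10) and Cxcl12 (-0.02). Without 1 animal the differences ranged from -0.08 to 0.10 for Ackr3, -0.33 to 0.56 for Ccl11, -0.14 to 0.19 for Ccl21, -0.19 to 0.01 for Ccr2, -0.09 to 0.05 for Ccr6, -0.02 to 0.23 for Cxcl12, -0.03 to 0.12 for Cxcl17, -0.06 to 0.04 for Cxcl2, -0.49 to 0.10 for Cxcl9, -0.42 to 0.18 for Cxcr1 and -0.18 to 0.03 for Cxcr5. The cause was not tested. The number of animals, 3 and 4, limits all of these values.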
